A study of Homo sapiens with 45 samples.

Results

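The 10 genes described here are the core subunits of Polycomb repressive complex 2, called PRC2 (EZH2, EED, SUZ12, RBBP4 and RBBP7), and 5 chromatin regulators that are often mutated in B-cell lymphoma (KMT2D, CREBBP, EP300, ARID1A and SMARCA4). Every array probe annotated with 1 of these symbols was taken and each probe was kept apart. This gave 10 of the 19431 gene symbols on the array and 15 of its 45013 probes. Of these, 12 probes of 8 genes were above background, among them 9 of 9 probes for PRC2 subunits and 3 of 6 probes for the other regulators. A probe counted as above background where its log2 value exceeded the array median by more than 0.5 on at least 3 arrays, which 13679 of all probes did.

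The cells were SUDHL6, a human diffuse large B-cell lymphoma line of germinal-centre type, and each sample received small interfering RNA (siRNA) pools by nucleofection, at 80 pmol as the labels give it. RNA was taken 20 hours later and read on 45 Illumina bead arrays, 1 per sample, as the authors' processed log2 values. The pools targeted HMGA1 (an architectural DNA-binding protein), FOXM1 (a forkhead factor active in dividing cells), TFDP1 (which pairs with E2F factors), ATF5 (a stress-response factor with a bZIP domain) and NFYB (part of NF-Y, which binds CCAAT). Single silencings were compared with the non-target pool siNT4, and pairs with siNT4 given as both members (siNT4+siNT4). The first set held 30 arrays in 10 groups. These were siHMGA1, siFOXM1, siTFDP1 and siATF5 with 3 arrays each, siNT4 with 4, siHMGA1+siFOXM1 and siHMGA1+siATF5 with 3 each, siHMGA1+siTFDP1 with 4, and siTFDP1+siATF5 and siNT4+siNT4 with 2 each. Titles marked with the letter A, whose meaning the labels do not explain, formed set A of 15 arrays with 3 arrays in every group, namely siNT4, siNFYB and siFOXM1 singly and siNT4+siNT4 and siNFYB+siFOXM1 as pairs. The silencing was transient and in 1 cell line. As the labels do not tie replicates to separate cultures, p-values reflect only array-to-array spread, possibly technical.

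PRC2 lays down the methyl mark on the tail of histone H3 that keeps genes silent. EZH2 is its catalytic subunit, EED reads the mark and stimulates EZH2, SUZ12 holds the complex together, and RBBP4 and RBBP7 bind histones in PRC2 and in several other complexes. In germinal-centre B cells EZH2 is abundant and holds back cell cycle inhibitors and plasma cell genes, and lymphomas of this origin carry activating EZH2 mutations. The other 5 act largely on the opposite side. KMT2D methylates histone H3 at enhancers, CREBBP and EP300 are acetyltransferases, and ARID1A and SMARCA4 belong to the SWI/SNF complex that moves nucleosomes, SMARCA4 being its ATPase.

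The promoters of EZH2 and RBBP7 are shown because EZH2 is the catalytic subunit and RBBP7 gave the 1 call among the silencings. Both run from 250 bases before to 50 bases after an annotated start, 5′ to 3′ on the gene's strand, from RefSeq (GRCh38.p14), which lists another start for each. Capitals mark matches on either strand to CCAAT, the letters bound by NF-Y, TTTNGCGC, which E2F and its partner TFDP1 bind, and TGACGT, the core bound by many bZIP factors.
EZH2, chr7:148884242-148884541, minus strand: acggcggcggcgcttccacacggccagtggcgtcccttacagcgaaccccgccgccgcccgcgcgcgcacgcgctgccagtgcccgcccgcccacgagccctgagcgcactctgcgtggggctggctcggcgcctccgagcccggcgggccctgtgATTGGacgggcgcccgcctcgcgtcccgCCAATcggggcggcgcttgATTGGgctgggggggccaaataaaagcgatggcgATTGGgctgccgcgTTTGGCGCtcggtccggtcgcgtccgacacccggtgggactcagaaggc
RBBP7, chrX:16870313-16870612, minus strand: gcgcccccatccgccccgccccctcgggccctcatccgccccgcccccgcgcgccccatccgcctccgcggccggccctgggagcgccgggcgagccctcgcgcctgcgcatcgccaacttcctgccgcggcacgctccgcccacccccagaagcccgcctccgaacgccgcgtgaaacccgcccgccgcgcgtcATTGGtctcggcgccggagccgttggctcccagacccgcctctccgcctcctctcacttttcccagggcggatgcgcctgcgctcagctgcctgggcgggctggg
This EZH2 promoter held 4 matches to CCAAT and 1 to TTTNGCGC, and the RBBP7 promoter held 1 match to CCAAT. The other EZH2 start had no match to CCAAT or TTTNGCGC and 1 to TGACGT, and the other RBBP7 start had 1 match to CCAAT. Among all 35116 promoters of this length in the table, 34.6% held CCAAT, 1.79% held TTTNGCGC and 7.98% held TGACGT. All 10 members had an entry. EED had 1 match to CCAAT and 1 to TGACGT, SUZ12 had 1 match to CCAAT, and the starts of RBBP4 had 2 and 1. The RBBP4 windows overlap, and the match of the second is the same site as 1 of those in the first. No match to the 3 motifs was found in the windows of KMT2D, CREBBP, EP300, ARID1A or SMARCA4. A match describes letters in the window and is not evidence of binding.

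The arrays were first checked on the silenced genes and on cell markers. HMGA1 fell by 1.55 on the log2 scale in siHMGA1 (adjusted p = 2.84e-11, limma), and TFDP1 fell by 1.06 in siTFDP1 on ILMN_1661717 (adjusted p = 8.33e-09). ATF5 fell by 0.69 in siATF5 (adjusted p = 0.00546). TFDP1 was lower still on the siATF5 arrays, at 9.30 to 9.59 against 10.18 to 10.35 with siTFDP1 and 11.25 to 11.43 with siNT4. With siHMGA1+siATF5 it stood at 11.34 to 11.50, and ATF5 itself was 0.10 lower there without passing the test (adjusted p = 1). FOXM1 did not pass the test in any silencing of it (-0.27 on ILMN_2344971 in the first set, adjusted p = 0.327, limma), and neither did NFYB, whose probe was dim (7.10 to 7.49 in siNFYB). HMGA1 averaged 10.79 with siHMGA1+siTFDP1 against 11.27 with siNT4+siNT4 and did not pass the test there, while TFDP1 did. The library labelled siHMGA1+siTFDP1 replicate 1 had HMGA1 at 11.27, within the range of its controls. Of 8 germinal-centre B-cell markers with a probe, 7 were above background, as was 1 of 8 T-cell markers (LCK), 3 of 8 myeloid markers (CD14, FCGR3A and CD68) and 1 of 6 stromal or epithelial markers (VIM). The array of siTFDP1+siATF5 replicate 3 stood apart, with a median correlation with the others of 0.694 against 0.975 to 0.993 and with 44.5% of probes above background against 24.2% to 30.6%. It was left out of the fit, which therefore held 44 arrays and a lone siTFDP1+siATF5 array, assumed to vary like the other groups. On that lone array TFDP1 ILMN_1661717 stood at 10.65, against 11.36 to 11.46 with siNT4+siNT4, and ATF5 at 10.28, against 10.29 to 10.63.

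Across the 11 silencings, transcript levels of the PRC2 subunits and of the other regulators above background stayed close to their controls. In several of these silencings a fall of the targeted transcript itself did not pass the test. Of the 132 changes measured (12 probes in 11 silencings), 125 lay within 0.25 log2 of 0 and the extremes were a fall of 0.37 for RBBP7 in siATF5 and a rise of 0.36 for EZH2 in siFOXM1. RBBP7 in siATF5 was the 1 call at an adjusted p under 0.05 in limma, and 7 changes had an unadjusted p under 0.05. Over all probes and silencings, 0.314% of changes were called and 6.47% had an unadjusted p under 0.05. Confidence intervals at 95%, which are not adjusted for the number of probes, reached at most 0.3 to 0.47 to either side of a change. Calls needed an adjusted p under 0.05, so differences of that size and smaller, and some larger ones, could go unseen.

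**Figure D1:**
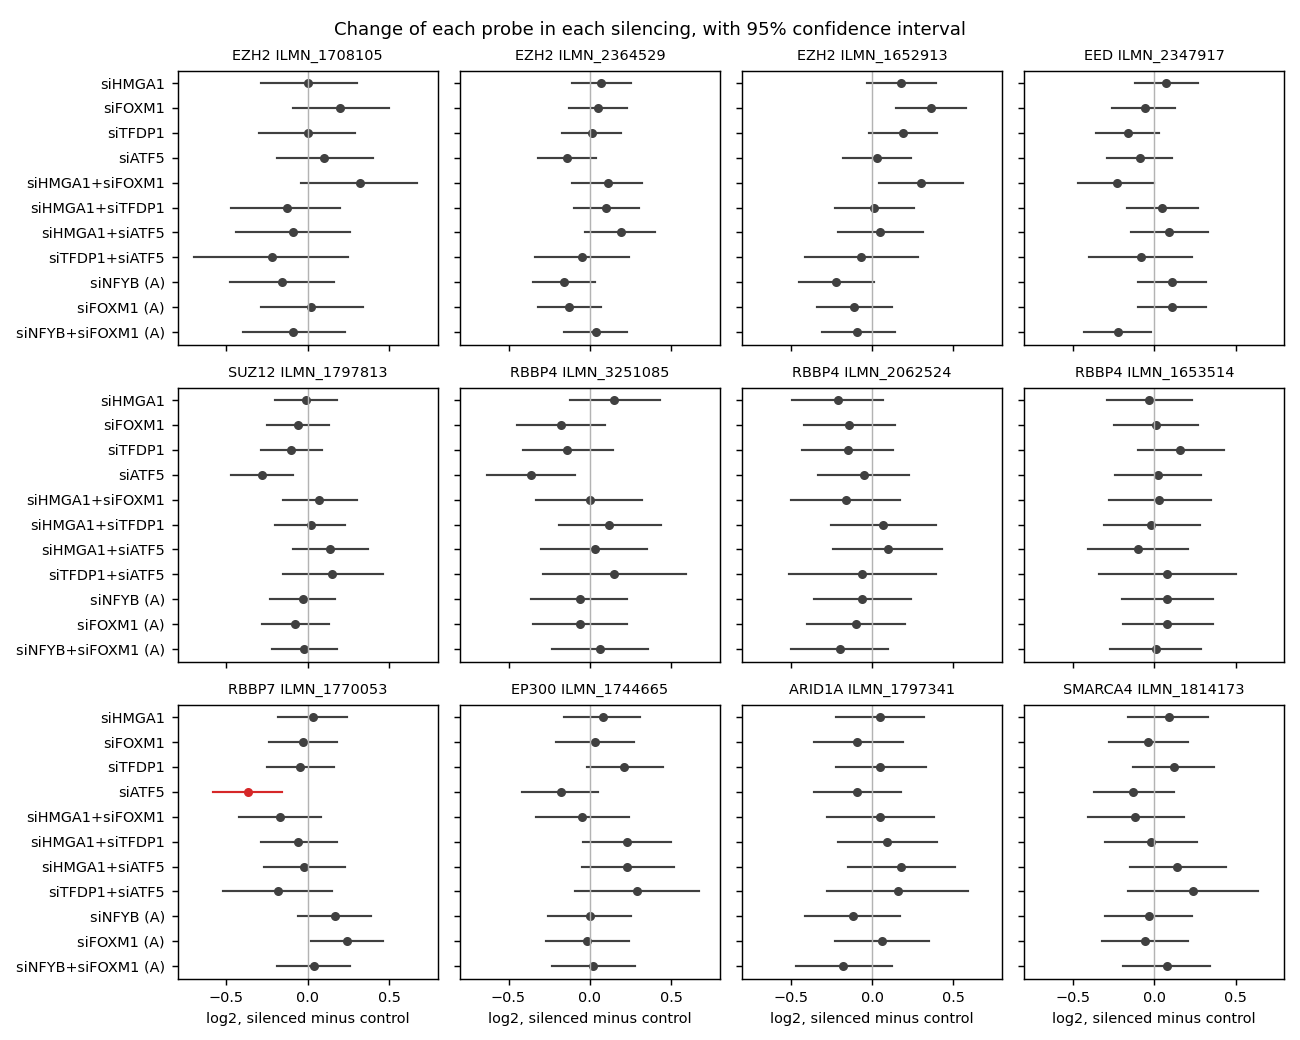
Log2 change of each of the 12 member probes above background (panels) in each of the 11 silencings (rows), silenced minus control of the same set, with 95% confidence intervals from 1 limma fit to 44 arrays. The red point, RBBP7 in siATF5 at -0.37, is the 1 change with an adjusted p under 0.05, and 125 of the 132 points lie within 0.25 of 0.

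The silencings differed in how many probes of the whole array they moved. For the first set, 0.00731% of all tested probes were called in siHMGA1, 0% in siFOXM1, 0.0512% in siTFDP1 and 3.37% in siATF5. In each of siHMGA1+siFOXM1, siHMGA1+siTFDP1 and siHMGA1+siATF5 the share was 0.00731%, and in siTFDP1+siATF5 it was 0%. In set A it was 0% in siNFYB and siFOXM1 and 0.00731% in siNFYB+siFOXM1. Of the 12 member probes, 0 were called in each of these other than siATF5, where 1 was (limma). By unadjusted p under 0.05 the count was 1 in siFOXM1 (10.3% of all probes), 3 in siATF5 (21.8%), 1 in siHMGA1+siFOXM1 (8.89%), 1 in siFOXM1 of set A (1.98%) and 1 in siNFYB+siFOXM1 (2.34%). It was 0 in siHMGA1 (2.24%), siTFDP1 (12%), siHMGA1+siTFDP1 (3.14%), siHMGA1+siATF5 (3.84%), siTFDP1+siATF5 (2.8%) and siNFYB (1.75%). With all 45 arrays 6 members were called in siTFDP1+siATF5, as were 52.6% of all probes, and 0 in the other silencings. The lone siTFDP1+siATF5 array lay outside the range of its 2 controls for 10 of 12 member probes, against 66.2% of all probes.

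EZH2, the catalytic subunit, was measured by 3 probes, and none was called in a silencing. The probe with the highest mean, ILMN_1708105, had log2 values of 9.59, 9.18 and 9.52 with siHMGA1, 9.77, 9.76 and 9.34 with siFOXM1, 9.51, 9.54 and 9.22 with siTFDP1 and 9.58, 9.66 and 9.35 with siATF5, against 9.77, 9.48, 9.08 and 9.36 with siNT4. In the pairs of the first set it read 10.12, 9.77 and 9.42 with siHMGA1+siFOXM1, 9.73, 9.04, 9.37 and 9.14 with siHMGA1+siTFDP1, 9.42, 9.41 and 9.25 with siHMGA1+siATF5 and 9.23 with siTFDP1+siATF5, against 9.61 and 9.30 with siNT4+siNT4. In set A it read 9.56, 9.66 and 9.56 with siNFYB, 9.69, 9.79 and 9.85 with siFOXM1 and 9.62, 9.80 and 9.84 with siNT4, then 9.67, 9.52 and 9.49 with siNFYB+siFOXM1 and 9.67, 9.69 and 9.57 with siNT4+siNT4. The highest array of all was a siHMGA1+siFOXM1 array, and that group overlapped its controls. Its change of 0.32 (SE 0.17, 95% interval -0.04 to 0.67) was the furthest from 0 for this probe (adjusted p = 0.609, limma).

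**Figure D2:**
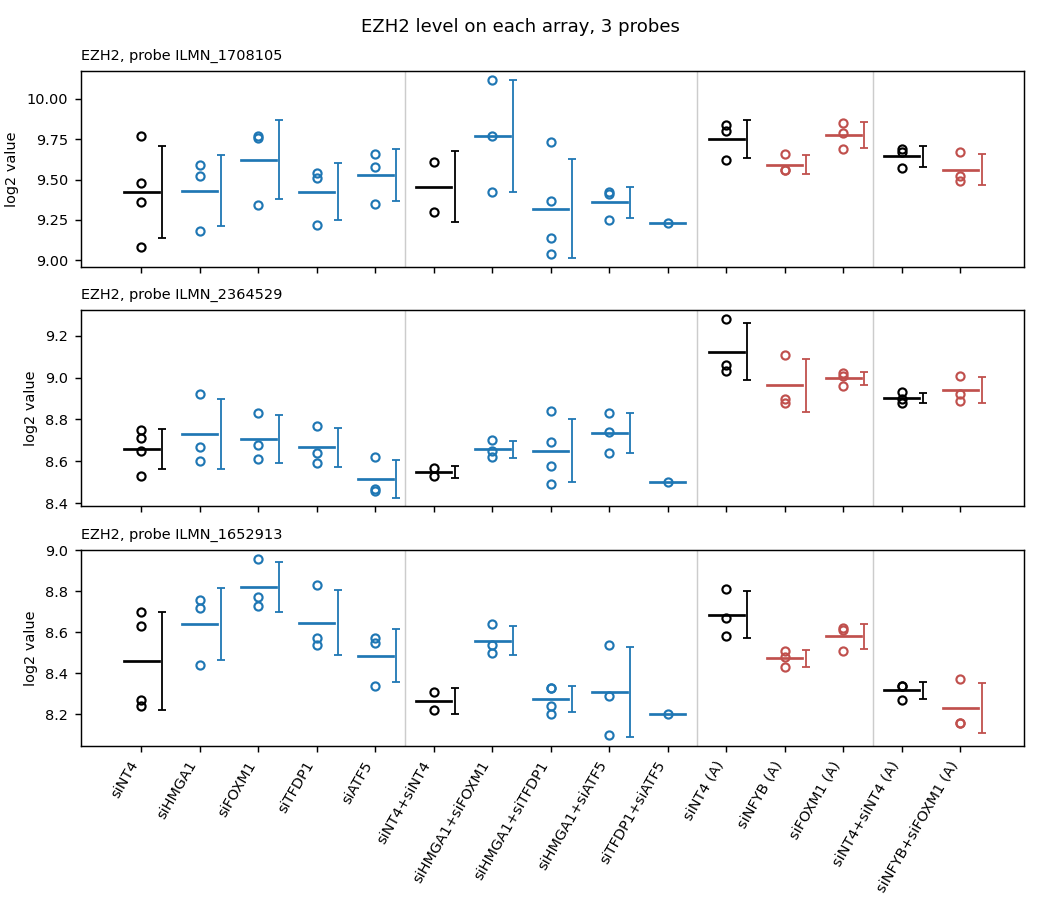
EZH2 log2 value on each of 44 arrays for its 3 probes (panels) by siRNA group, with controls in black, first-set silencings in blue and set A silencings in red. Horizontal lines are group means and bars beside the points are ±1 SD. In the middle panel all 15 set A arrays lie between 8.88 and 9.28, and the first set between 8.46 and 8.92.

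The second probe, ILMN_2364529, had 8.67, 8.60 and 8.92 with siHMGA1, 8.68, 8.61 and 8.83 with siFOXM1, 8.59, 8.64 and 8.77 with siTFDP1, 8.62, 8.47 and 8.46 with siATF5 and 8.53, 8.65, 8.75 and 8.71 with siNT4. In the first-set pairs the same EZH2 probe had 8.62, 8.70 and 8.65 with siHMGA1+siFOXM1, 8.69, 8.84, 8.49 and 8.58 with siHMGA1+siTFDP1, 8.83, 8.74 and 8.64 with siHMGA1+siATF5, 8.50 with siTFDP1+siATF5 and 8.53 and 8.57 with siNT4+siNT4. In set A it had 8.90, 9.11 and 8.88 with siNFYB, 8.96, 9.02 and 9.01 with siFOXM1, 9.03, 9.06 and 9.28 with siNT4, 9.01, 8.89 and 8.92 with siNFYB+siFOXM1 and 8.88, 8.90 and 8.93 with siNT4+siNT4. Set A was high on this probe whatever was silenced, and only the lowest set A arrays met the highest first-set arrays. Silencing changes ran from -0.16 (SE 0.09) in siNFYB to 0.19 (SE 0.11) in siHMGA1+siATF5, and the adjusted p of both was 1 in limma.

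The third probe, ILMN_1652913, is annotated to another EZH2 transcript and gave the furthest rise of any member. It read 8.77, 8.96 and 8.73 with siFOXM1 against 8.63, 8.27, 8.70 and 8.24 with siNT4 in the first set, with no overlap. How many of all probes did not overlap in this comparison is not given, so the gap is not read as particular to EZH2. By unadjusted p under 0.05, 10.3% of all probes differed there (limma). The change of 0.36 (SE 0.11, 95% interval 0.15 to 0.58) did not pass the test (adjusted p = 0.291, limma). In set A the same silencing gave 8.61, 8.51 and 8.62 against 8.81, 8.58 and 8.67, a change of -0.11 (SE 0.11). The difference between the 2 changes was -0.47 (SE 0.15, 95% interval -0.78 to -0.16), with an adjusted p of 0.948 (limma) and 0% of all probes called for this difference. With siHMGA1+siFOXM1 the probe was 0.30 above its controls (SE 0.13, adjusted p = 0.506). The other EZH2 probes changed by 0.20 and 0.05 in siFOXM1 of the first set.

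Agreement between the EZH2 probes was weak in the first set. Over its 29 arrays, ILMN_1708105 and ILMN_2364529 had a Pearson r of -0.16 and a Spearman rho of -0.12 (permutation p = 0.40 and 0.54, adjusted 0.50 and 0.62 over 12 relations). Without the 2 arrays farthest from the median r was -0.06. ILMN_1708105 and ILMN_1652913 had r = 0.35 and rho = 0.34 there (permutation p = 0.065 and 0.076, adjusted 0.20 and 0.23), with r = 0.28 without the 2 farthest. ILMN_2364529 and ILMN_1652913 had r = 0.12 and rho = 0.08 (permutation p = 0.55 and 0.67, adjusted 0.60 and 0.67), with r = 0.11 without the 2 farthest. Over the 15 arrays of set A, ILMN_1708105 and ILMN_2364529 had r = 0.66 and rho = 0.56 (permutation p = 0.0054 and 0.034, adjusted 0.065 and 0.14), and r = 0.71 without the 2 farthest. ILMN_1708105 and ILMN_1652913 had r = 0.59 and rho = 0.6 in set A (permutation p = 0.02 and 0.019, adjusted 0.08 and 0.11), with r = 0.46 without the 2 farthest. ILMN_2364529 and ILMN_1652913 had r = 0.62 and rho = 0.69 (permutation p = 0.011 and 0.0062, adjusted 0.066 and 0.074), with r = 0.67 without the 2 farthest. Of the 12 relations tested between probes of EZH2 and of RBBP4, none had an adjusted p under 0.05. Arrays of the same siRNA group are not independent, and differences between groups can feed these correlations, so the permutation p-values can be too small. The 5 probes most like ILMN_1708105 over the 44 arrays, each array taken minus the mean of its set, were those of ATP6V1E1 (r = 0.859), ARL6IP4 (0.817), COMTD1 (0.817), CTCF (0.798) and MYL6 (0.793). Among the 10643 probes ranked, the other EZH2 probes, ILMN_1652913 and ILMN_2364529, were at place 1816 (r = 0.378) and 5627 (r = -0.015). The ranking differed by set. In the first set the 5 named probes had r = 0.805 to 0.89 and the other EZH2 probes 0.347 and -0.162. In set A the 5 had r = 0.554 to 0.682 and the other EZH2 probes 0.594 and 0.659. The correlations of this ranking describe arrays that share processing and are given without a test.

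EED, the subunit that reads the methyl mark, had 1 probe, ILMN_2347917. It stood at 8.95, 9.17 and 9.27 with siHMGA1, 8.96, 8.97 and 9.03 with siFOXM1, 8.84, 9.02 and 8.81 with siTFDP1, 8.94, 8.88 and 9.07 with siATF5 and 9.05, 9.08, 9.05 and 9.03 with siNT4. In the pairs of the first set EED was at 8.80, 9.0 and 8.86 with siHMGA1+siFOXM1, 9.11, 9.25, 9.18 and 9.12 with siHMGA1+siTFDP1, 9.05, 9.22 and 9.36 with siHMGA1+siATF5, 9.03 with siTFDP1+siATF5 and 9.16 and 9.08 with siNT4+siNT4. In set A EED was at 9.59, 9.56 and 9.26 with siNFYB, 9.52, 9.54 and 9.36 with siFOXM1, 9.30, 9.51 and 9.27 with siNT4, 9.19, 9.44 and 9.0 with siNFYB+siFOXM1 and 9.39, 9.54 and 9.38 with siNT4+siNT4. The siFOXM1 and siTFDP1 arrays of the first set and the siHMGA1+siFOXM1 arrays lay below their controls without overlap, and the siNFYB+siFOXM1 arrays overlapped theirs. The share of all probes without overlap in these comparisons is not given, so these gaps are not read as particular to EED. The gap for siFOXM1 was below the rounding, with its highest array and the lowest siNT4 array both at 9.03. The changes were -0.06 in siFOXM1 (SE 0.10, adjusted p = 0.832), -0.16 in siTFDP1 (SE 0.10, adjusted p = 0.522), -0.23 in siHMGA1+siFOXM1 (SE 0.12, adjusted p = 0.566) and -0.22 in siNFYB+siFOXM1 (SE 0.10, adjusted p = 1), all in limma.

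SUZ12, the scaffold of PRC2, was read by ILMN_1797813. Its values were 11.69, 11.79 and 11.80 with siHMGA1, 11.69, 11.59 and 11.85 with siFOXM1, 11.51, 11.80 and 11.73 with siTFDP1, 11.54, 11.46 and 11.47 with siATF5 and 11.76, 11.65, 11.84 and 11.84 with siNT4. For SUZ12 in the first-set pairs they were 11.74, 11.65 and 11.56 with siHMGA1+siFOXM1, 11.54, 11.40, 11.49 and 11.93 with siHMGA1+siTFDP1, 11.72, 11.70 and 11.73 with siHMGA1+siATF5, 11.73 with siTFDP1+siATF5 and 11.46 and 11.69 with siNT4+siNT4. For SUZ12 in set A they were 11.94, 11.86 and 12 with siNFYB, 11.93, 11.86 and 11.88 with siFOXM1, 12.04, 11.92 and 11.93 with siNT4, 11.78, 11.80 and 11.88 with siNFYB+siFOXM1 and 11.97, 11.78 and 11.75 with siNT4+siNT4. All 3 siATF5 arrays lay below all 4 siNT4 arrays. The difference of -0.28 (SE 0.09, 95% interval -0.47 to -0.09) missed the threshold (adjusted p = 0.0765, limma).

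RBBP4, a histone-binding subunit, had 3 probes. ILMN_3251085, with the highest mean, read 9.95, 10.20 and 10.44 with siHMGA1, 9.83, 9.47 and 10.28 with siFOXM1, 9.85, 9.96 and 9.90 with siTFDP1, 9.54, 9.62 and 9.88 with siATF5 and 9.93, 10.04, 10.17 and 10.02 with siNT4. In the first-set pairs this RBBP4 probe read 10.15, 9.76 and 10.01 with siHMGA1+siFOXM1, 9.91, 10.23, 10.19 and 10.08 with siHMGA1+siTFDP1, 10.10, 9.87 and 10.04 with siHMGA1+siATF5, 10.13 with siTFDP1+siATF5 and 9.77 and 10.19 with siNT4+siNT4. In set A this RBBP4 probe read 10.18, 10.30 and 10.18 with siNFYB, 10.37, 10.18 and 10.12 with siFOXM1, 10.44, 10.32 and 10.09 with siNT4, 9.95, 10.42 and 10.24 with siNFYB+siFOXM1 and 10.06, 10.23 and 10.13 with siNT4+siNT4. The siATF5 arrays again lay below every siNT4 array. Their difference was -0.36 (SE 0.14, 95% interval -0.63 to -0.09, adjusted p = 0.113 in limma). The second probe, ILMN_2062524, was 0.05 lower in siATF5 (SE 0.14, adjusted p = 0.882), and the third, ILMN_1653514, was dim, passing the offset on 6 of 44 arrays with values from 6.84 to 7.73.

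RBBP7, the close relative of RBBP4, was lower in siATF5 and gave the 1 call among the silencings. On its probe, ILMN_1770053, the siATF5 arrays read 10.65, 10.77 and 11.10 and the siNT4 arrays 11.11, 11.13, 11.10 and 11.53. The first 2 siATF5 arrays lay below every control and the third overlapped them. The mean was 10.84 ± 0.23 (SD, n = 3) against 11.22 ± 0.21 (SD, n = 4), so RBBP7 fell by 0.37 on the log2 scale (SE 0.10, 95% interval -0.58 to -0.16, limma adjusted p = 0.0371). The other single silencings read 11.14, 11.24 and 11.35 with siHMGA1, 11.26, 10.99 and 11.31 with siFOXM1 and 11.10, 11.20 and 11.21 with siTFDP1. In the first-set pairs RBBP7 read 11.06, 11.01 and 11.31 with siHMGA1+siFOXM1, 11.09, 11.30, 11.37 and 11.21 with siHMGA1+siTFDP1, 11.25, 11.21 and 11.38 with siHMGA1+siATF5, 11.12 with siTFDP1+siATF5 and 11.40 and 11.20 with siNT4+siNT4. With siHMGA1+siATF5 RBBP7 overlapped its controls, with a change of -0.02 (SE 0.12, adjusted p = 1). In set A RBBP7 read 11.52, 11.50 and 11.58 with siNFYB, 11.70, 11.52 and 11.60 with siFOXM1, 11.35, 11.42 and 11.32 with siNT4, 11.52, 11.36 and 11.46 with siNFYB+siFOXM1 and 11.45, 11.45 and 11.33 with siNT4+siNT4. The siFOXM1 arrays there lay above siNT4 by 0.24 (SE 0.11), which did not pass (adjusted p = 1, limma).

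**Figure D3:**
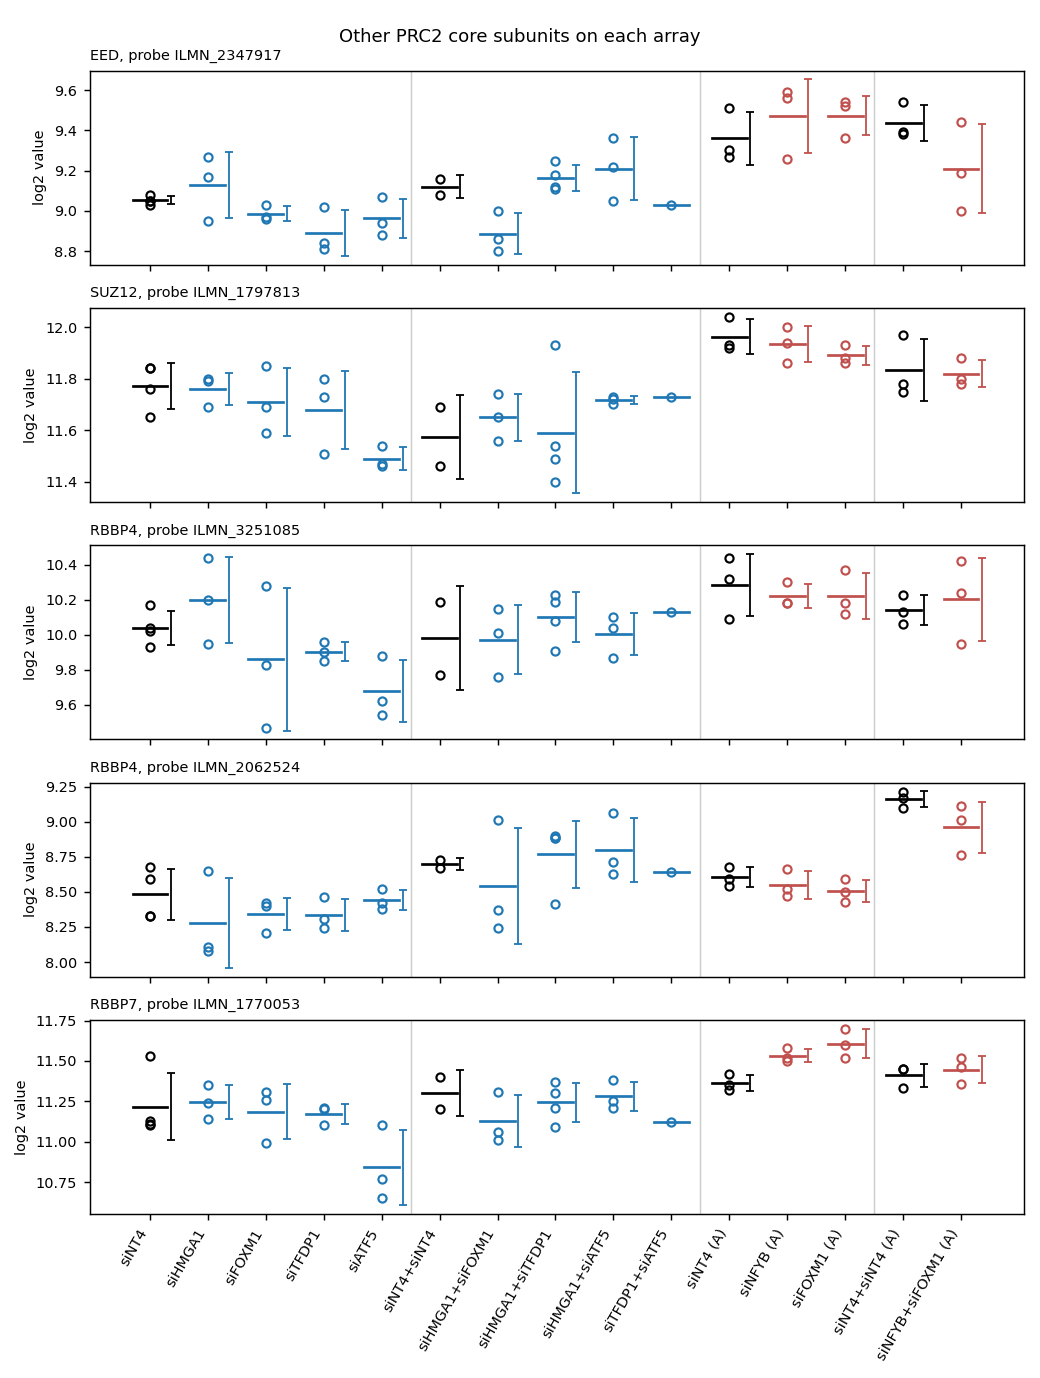
Log2 value of EED, SUZ12, RBBP4 (2 probes) and RBBP7 on each of 44 arrays by siRNA group, with controls in black, first-set silencings in blue and set A silencings in red. Lines are group means and bars ±1 SD. The siATF5 group has the lowest mean of the first set for SUZ12 (11.49), RBBP4 ILMN_3251085 (9.68) and RBBP7 (10.84).

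The RBBP7 call rested on single arrays. It was lost without siATF5 replicate 1 (-0.28, adjusted p = 0.232), without siATF5 replicate 2 (-0.34, 0.244), without siNT4 replicate 2 (-0.40, 0.0518) or without siNT4 replicate 4 (-0.27, 0.168), and with all 45 arrays (-0.37, 0.559, limma). Without siATF5 replicate 3 the change was -0.50 (adjusted p = 0.0018), and RBBP4 ILMN_3251085 was called as well (-0.46, 0.0314), in a fit that called 2402 probes in all against 461 in the reported one. The siATF5 arrays with low RBBP7 were also unusual as arrays, since 29.4% and 30.6% of their probes were above background, against 25.4% on the third siATF5 array and 25.2% to 25.9% on siNT4 arrays. The first-set siFOXM1 array with 28.6% had the lowest RBBP7 outside siATF5, at 10.99. Other arrays did not keep to this order. The siTFDP1 array with 27.1% read 11.10, and siHMGA1+siTFDP1 replicate 1, with the lowest share (24.2%), read 11.09. With each array's share as a covariate, the RBBP7 change was -0.14 (adjusted p = 0.999), that of RBBP4 ILMN_3251085 was -0.05 and that of SUZ12 was -0.23 (adjusted p = 0.999 for each, limma). The share comes from the same log2 values and was highest on siATF5 replicates 1 and 2. It cannot be fully told apart from the silencing, so this covariate can also remove a change due to the silencing. The part of the share in the result was not tested.

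**Figure D4:**
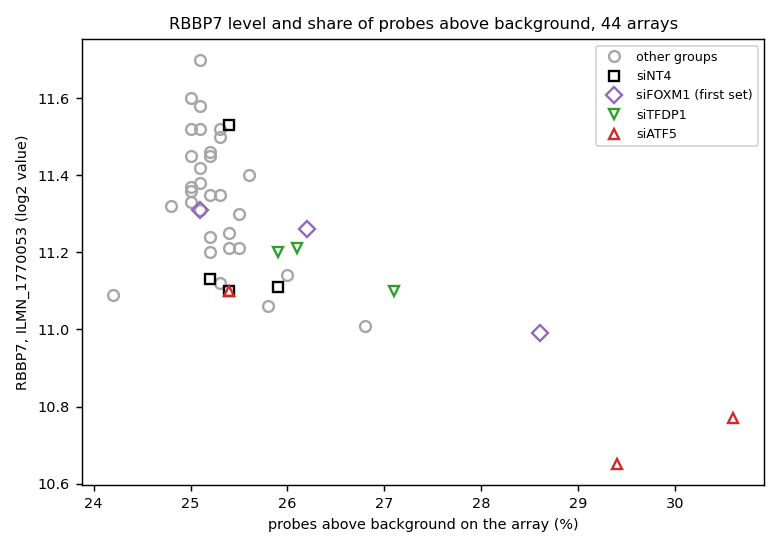
RBBP7 log2 value on each of 44 arrays (vertical) against the share of all probes above background on that array in percent (horizontal), 1 point per array. First-set siNT4, siFOXM1, siTFDP1 and siATF5 arrays have marks of their own and the rest are grey circles. The siATF5 arrays at 29.4% and 30.6% carry the lowest RBBP7 values, 10.65 and 10.77, and the third siATF5 array, at 25.4%, lies at 11.10.

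In siATF5, 9 of the 12 member probes had a negative change, with a median of -0.11 beside -0.012 over all probes, of which 52.8% were negative. Groups did not overlap for 2 of the 12, against 10.7% of all probes. As 1.62% of all probes were called lower in siATF5, 1 call among 12 probes says little about these genes as a group. The fit to 45 arrays called 8 probes in siATF5, or 0.0551%, and none was a member. Set directly against siTFDP1, in which 0.775% of all probes were called, 0 members were called (limma), and 2 had an unadjusted p under 0.05, as had 12.7% of all probes. These were EP300 at -0.40 (SE 0.13, adjusted p = 0.121) and RBBP7 at -0.33 (SE 0.11, adjusted p = 0.162). Without siATF5 replicate 3 both passed (adjusted p = 0.0419 and 0.0119), as did 895 probes in all against 106 in the reported fit, and with any other replicate left out neither did (adjusted p up to 0.502 and 0.485).

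Other genes of the same pathways were read from lists chosen with earlier results of these data known. In siATF5, 1 of 9 probes for PRC2 accessory proteins above background was called, PHF1, a PRC2 partner, which was higher by 0.41 (SE 0.12, adjusted p = 0.0437, arrays overlapping). Among 16 probes for COMPASS methyltransferase complexes, in which KMT2D works, PAGR1 was lower by 0.43 (SE 0.08, adjusted p = 0.00322). Among 15 probes for other complexes that hold RBBP4 or RBBP7, CHAF1B of the chromatin assembly factor was lower by 0.45 (SE 0.13, adjusted p = 0.0432, arrays overlapping). Of genes that EZH2 holds down, 2 probes were above background. That of CDKN2B owed this mainly to its siATF5 arrays (7.24 to 7.69), so no change is given, and that of CDKN2A was 0.05 higher (SE 0.10, adjusted p = 0.827). PHF1, PAGR1 and CHAF1B were named after their values were seen, each being the 1 call of its list, and none was called with 45 arrays. As 3.37% of all probes were called in siATF5 in either direction, these single calls say little about their lists. The lists of PRC1 (12 probes), demethylases that remove the PRC2 mark (2), acetyltransferases and deacetylases (10) and SWI/SNF (25) had 0 calls in siATF5 (limma, also 0 with 45 arrays). Among the cell markers 1 of 4 myeloid probes above background was called higher in siATF5, CD68, and its part in these results was not tested.

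Part of a list of E2F-responsive proliferation genes fell in siATF5, where TFDP1 was low as well. Of 13 probes, 6 fell and 0 rose, where 1.62% of all probes were called lower, and with 45 arrays 1 fell. Calls in siATF5 depended on single arrays, with 27 to 2402 probes called in all when single replicates were left out. How many of this list pass in those fits, or with the share of detected probes as covariate, is not given. The median over the list was -0.27 beside -0.012 over all probes. E2F1 at 0.03 (SE 0.16, adjusted p = 0.938) and MCM2 at -0.12 (SE 0.11, adjusted p = 0.563) were among the 7 probes that did not pass. MCM4 of the replicative helicase fell by 0.76 on ILMN_1737205 (SE 0.13, adjusted p = 0.000634), while its probe ILMN_2412860 did not pass. TYMS, the thymidylate synthase, fell by 0.76 (SE 0.12, adjusted p = 0.000234). Cyclin E (CCNE1) fell by 0.73 (SE 0.14, adjusted p = 0.00261) and RRM2, a ribonucleotide reductase subunit, by 0.59 (SE 0.12, adjusted p = 0.00375). EZH2 is itself described as an E2F target, and its 3 probes changed by 0.10, -0.14 and 0.03 in siATF5, none past the test (adjusted p = 0.714, 0.34 and 0.903, limma). With each array's share of detected probes as covariate, the first of these turned to -0.09 and the third to -0.11. In siTFDP1 the list had a median of -0.22 and 1 call, TYMS, which fell by 0.57 (SE 0.12, adjusted p = 0.0301), and the EZH2 probes changed by 0.00, 0.01 and 0.19 (adjusted p = 0.994, 0.987 and 0.484).

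KMT2D, the enhancer methyltransferase, was not above background on any of the 44 arrays. Its probe ILMN_1802743 lay between 6.67 and 7.08, around the array medians of 6.95 to 6.98. CREBBP, an acetyltransferase, likewise passed on 0 of 44 arrays with ILMN_2293692, between 6.86 and 7.44. KMT2D read 6.78, 6.87 and 6.86 with siHMGA1, 6.90, 6.85 and 6.87 with siFOXM1, 6.82, 6.84 and 6.88 with siTFDP1, 6.85, 6.84 and 6.86 with siATF5 and 7.0, 6.86, 6.87 and 6.93 with siNT4, and CREBBP on the same arrays read 7.32, 7.08 and 7.0, 7.28, 7.12 and 7.04, 6.90, 7.44 and 7.17, 7.18, 7.31 and 6.94 and 7.19, 6.97, 7.18 and 7.14. The second ARID1A probe, ILMN_1734496, lay between 6.67 and 7.02 and also passed on 0 arrays. No change is given for these 3 probes, and a value at background says nothing of whether the transcript was present below it. In the first-set pairs KMT2D read 6.86, 6.89 and 6.86 with siHMGA1+siFOXM1, 6.92, 6.91, 6.91 and 6.67 with siHMGA1+siTFDP1, 6.75, 7.08 and 6.80 with siHMGA1+siATF5, 6.81 with siTFDP1+siATF5 and 6.82 and 6.85 with siNT4+siNT4, and CREBBP, in the same order, read 7.26, 6.97 and 7.12, 7.15, 6.90, 7.23 and 7.09, 6.88, 6.86 and 7.02, 7.06 and 7.07 and 7.11. Set A read 6.85, 6.79 and 6.89 with siNFYB, 6.87, 6.88 and 6.84 with siFOXM1, 6.86, 6.85 and 6.83 with siNT4, 6.85, 6.84 and 6.88 with siNFYB+siFOXM1 and 7.07, 6.84 and 6.95 with siNT4+siNT4 for KMT2D, and, in the same order, 7.27, 7.03 and 7.01, 6.99, 6.95 and 7.14, 7.10, 7.0 and 7.15, 7.06, 7.22 and 7.01 and 7.11, 6.87 and 7.11 for CREBBP.

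EP300, the paralogue of CREBBP, was well above background on ILMN_1744665. It read 8.96, 9.16 and 8.91 with siHMGA1, 8.98, 8.89 and 9.02 with siFOXM1, 8.97, 9.38 and 9.08 with siTFDP1, 8.79, 8.59 and 8.86 with siATF5 and 8.83, 8.95, 9.23 and 8.72 with siNT4. In the first-set pairs EP300 read 8.75, 8.98 and 8.88 with siHMGA1+siFOXM1, 9.16, 9.31, 9.14 and 8.99 with siHMGA1+siTFDP1, 9.24, 9.03 and 9.17 with siHMGA1+siATF5, 9.20 with siTFDP1+siATF5 and 8.79 and 9.04 with siNT4+siNT4. In set A EP300 read 9.28, 9.09 and 8.97 with siNFYB, 8.93, 9.21 and 9.16 with siFOXM1, 9.02, 9.40 and 8.94 with siNT4, 8.99, 8.97 and 9.19 with siNFYB+siFOXM1 and 8.93, 9.17 and 8.97 with siNT4+siNT4. The siATF5 and siTFDP1 arrays did not overlap each other, and both overlapped siNT4. Against control the changes were -0.18 in siATF5 (SE 0.12, adjusted p = 0.356) and 0.21 in siTFDP1 (SE 0.12, adjusted p = 0.473), and the furthest was 0.29 on the lone siTFDP1+siATF5 array (SE 0.19, adjusted p = 0.999, limma), which turned to -0.74 with the second array of that group.

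**Figure D5:**
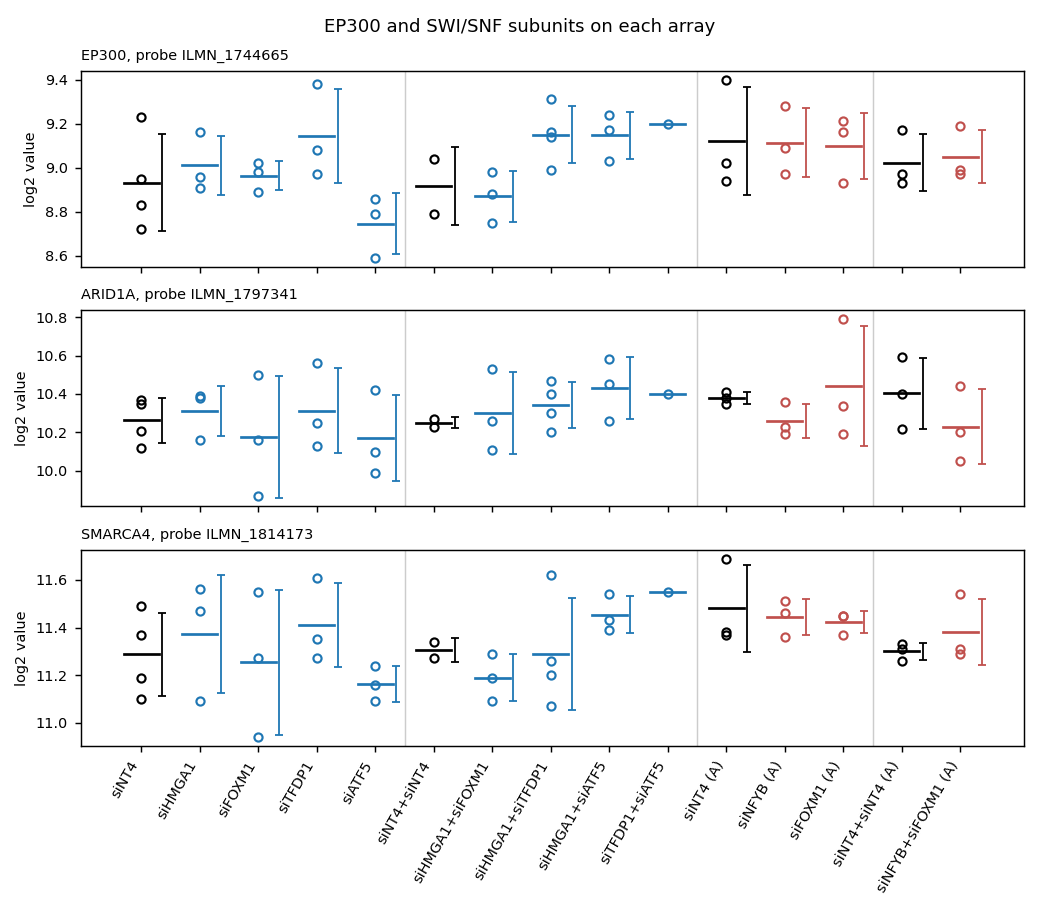
Log2 value of EP300, ARID1A and SMARCA4 on each of 44 arrays by siRNA group, with controls in black, first-set silencings in blue and set A silencings in red. Lines are group means and bars ±1 SD. Silenced and control arrays overlap in most groups, and none of the changes passed the test.

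ARID1A, the DNA-binding subunit of SWI/SNF, was read by ILMN_1797341. Its values were 10.16, 10.38 and 10.39 with siHMGA1, 10.16, 9.87 and 10.50 with siFOXM1, 10.25, 10.13 and 10.56 with siTFDP1, 10.10, 9.99 and 10.42 with siATF5 and 10.12, 10.37, 10.35 and 10.21 with siNT4. For ARID1A in the first-set pairs they were 10.53, 10.11 and 10.26 with siHMGA1+siFOXM1, 10.20, 10.30, 10.47 and 10.40 with siHMGA1+siTFDP1, 10.58, 10.26 and 10.45 with siHMGA1+siATF5, 10.40 with siTFDP1+siATF5 and 10.23 and 10.27 with siNT4+siNT4. For ARID1A in set A they were 10.23, 10.19 and 10.36 with siNFYB, 10.79, 10.19 and 10.34 with siFOXM1, 10.38, 10.35 and 10.41 with siNT4, 10.05, 10.20 and 10.44 with siNFYB+siFOXM1 and 10.40, 10.22 and 10.59 with siNT4+siNT4. Replicates of siFOXM1 spread widely in both sets, with an SD of 0.32 and 0.31. The changes ran from -0.18 (SE 0.14) in siNFYB+siFOXM1 to 0.18 (SE 0.16) in siHMGA1+siATF5, with an adjusted p of 1 for both (limma).

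SMARCA4, the SWI/SNF ATPase, was read by ILMN_1814173. It stood at 11.09, 11.56 and 11.47 with siHMGA1, 11.27, 10.94 and 11.55 with siFOXM1, 11.27, 11.35 and 11.61 with siTFDP1, 11.09, 11.16 and 11.24 with siATF5 and 11.10, 11.19, 11.37 and 11.49 with siNT4. In the first-set pairs SMARCA4 stood at 11.19, 11.09 and 11.29 with siHMGA1+siFOXM1, 11.07, 11.26, 11.20 and 11.62 with siHMGA1+siTFDP1, 11.43, 11.54 and 11.39 with siHMGA1+siATF5, 11.55 with siTFDP1+siATF5 and 11.27 and 11.34 with siNT4+siNT4. In set A SMARCA4 stood at 11.51, 11.46 and 11.36 with siNFYB, 11.45, 11.37 and 11.45 with siFOXM1, 11.69, 11.38 and 11.37 with siNT4, 11.29, 11.31 and 11.54 with siNFYB+siFOXM1 and 11.26, 11.31 and 11.33 with siNT4+siNT4. The siHMGA1+siATF5 arrays lay just above their 2 controls, and the single siATF5 arrays overlapped theirs. These changes were 0.14 (SE 0.15, adjusted p = 1) and -0.13 (SE 0.12, adjusted p = 0.569, limma), and the furthest was 0.24 on the lone siTFDP1+siATF5 array (SE 0.20, adjusted p = 0.999), which turned to -0.54 with the second array of that group.

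The 2 sets of controls differed in EZH2. On ILMN_2364529, siNT4 read 9.03, 9.06 and 9.28 in set A and 8.53, 8.65, 8.75 and 8.71 in the first set, with no overlap, a difference of 0.46 (SE 0.09, 95% interval 0.28 to 0.64, limma adjusted p = 0.00121). The other EZH2 probes were higher in set A by 0.33 (SE 0.15, adjusted p = 0.285) and 0.23 (SE 0.11, adjusted p = 0.301), and EED by 0.30 (SE 0.10, adjusted p = 0.0867). Of the 12 member probes 1 was called and 11 had a positive difference, where 2.49% of all probes were called and 52.2% had a negative difference. The EZH2 call held without any 1 of the 7 control arrays (0.38 to 0.51, adjusted p 0.00168 to 0.0321) and was lost with all 45 arrays (adjusted p = 0.619, with 0.461% of all probes called). Whatever else differed between the sets cannot be told apart from the set.

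Related genes also differed between the 2 control groups, where 2.49% of all probes were called in either direction. In the E2F list 6 of 13 probes were higher in set A and 0 lower, among them MCM4 on ILMN_2412860 by 0.96 (SE 0.13, adjusted p = 5.11e-06), TYMS by 0.79 (SE 0.12, adjusted p = 4.38e-05) and MCM2 by 0.62 (SE 0.11, adjusted p = 0.000692). CHAF1B was higher by 0.69 (SE 0.13, adjusted p = 0.000997). CBX2 of PRC1 was higher by 0.44 (SE 0.09, adjusted p = 0.00256) and CDKN2A, a cell cycle inhibitor that EZH2 holds down, by 0.46 (SE 0.10, adjusted p = 0.00384), both named after their values were seen. With 45 arrays MCM2 and CBX2 passed (adjusted p = 0.00751 and 0.0181) and the others named here did not.

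Giving the control pool as both members of a pair was itself compared with giving it singly. In the first set 0% of all probes differed, and 0 members did (limma). By unadjusted p under 0.05 it was 3.51% and again 0 members. In set A 0.402% of all probes were called, and 0 of the 12 members, with 3 by unadjusted p under 0.05 (10.2% of all probes). RBBP4 ILMN_2062524 read 9.17, 9.10 and 9.21 with siNT4+siNT4 and 8.68, 8.54 and 8.59 with siNT4, a difference of 0.56 (SE 0.15, 95% interval 0.26 to 0.86, adjusted p = 0.0732 in limma). EZH2 ILMN_1652913 read 8.34, 8.27 and 8.34 and 8.81, 8.58 and 8.67 in these groups, a difference of -0.38 (SE 0.11, 95% interval -0.60 to -0.15, adjusted p = 0.124). EZH2 ILMN_2364529 differed by -0.22 (SE 0.09, adjusted p = 0.386). Groups did not overlap for 5 of the 12, against 20.4% of all probes.

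The silenced groups of set A were read for the 2 probes with the furthest differences between these controls. RBBP4 ILMN_2062524 lay at 8.76 to 9.11 with siNFYB+siFOXM1, against 8.47 to 8.66 with siNFYB and 8.43 to 8.59 with siFOXM1. EZH2 ILMN_1652913 lay at 8.16 to 8.37, against 8.43 to 8.51 and 8.51 to 8.62. With those controls included, the 6 arrays that received a pair of pools had RBBP4 at 8.76 to 9.21, and the 9 with a single pool at 8.43 to 8.68. For EZH2 the 6 arrays lay at 8.16 to 8.37 and the 9 at 8.43 to 8.81. As the 2 probes were chosen by the difference between those controls, part of this separation was fixed by the choice. The share of all probes that separated these arrays is not given, so the separation is not read as particular to these genes. In the first set the same probes overlapped, at 8.24 to 9.06 in 13 pair arrays against 8.08 to 8.68 in 16 single arrays for RBBP4 and at 8.10 to 8.64 against 8.24 to 8.96 for EZH2. The other 2 probes of each gene did not separate the arrays this way in set A. Whether these 2 control differences passed depended on the fit. They passed with set A alone (adjusted p = 0.000363 and 0.00917) and with array weights on 45 arrays (0.00208 and 0.00976), fits that called 599 and 590 probes in all against 55. With a replicate block, which called 299, the RBBP4 difference passed (0.0186). They did not pass with 45 arrays unweighted (0.318 and 1) or with any 1 replicate left out (0.109 to 0.316 and 0.21 to 0.352).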

How the data were processed

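The deposited values were the authors' processed log2 values, 1 array per sample, for 45013 probes, ranging from 6.278 to 16.28. The background correction, normalization and exact transformation behind them are not stated in the labels or files. Array medians were 6.95 to 6.98 on 44 arrays and 6.89 on the array left out. Another deposited table of unprocessed signals had 90 columns that no label ties to a sample, and it was not used. Of the probes, 28746 carried 1 gene symbol in GEO's platform annotation, 8 several and 16259 none, and only probes with 1 symbol were named. Annotation of that kind can be old.

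Groups came from the sample titles. A single limma model of 15 group means (limma 3.58.1, R 4.3.3) was fitted to 44 arrays with 29 residual degrees of freedom, and moderated tests were two-sided. P-values were adjusted by Benjamini-Hochberg over the 13679 probes above background, with a threshold of 0.05. The number of arrays limits the precision. No 2 arrays were identical, and the highest correlation of any 2 was 0.9962. The script was tested on simulated data. The members, the gene lists and the choice of 44 arrays were made with earlier results of these data known.

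Every member probe was named, with its value on each array where it passed the threshold or had the highest mean of its gene. From the related lists, calls were counted where a member had passed, and up to 4 with the furthest change were named. The 5 probes most correlated with the brightest EZH2 probe were also named. Alternatives were all 45 arrays with and without array weights, no filter or a filter on the mean, quantile normalization, each array's share of detected probes as covariate, a replicate block, the arrays of 1 set alone and leaving out each replicate. An intensity trend with robust shrinkage and subtraction of the median change were added after seeing the data. Correlations between probes of a gene used permutation tests with 100000 resamples.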

Additional observations from a re-analysis of the deposited data

Results flagged for a closer look

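Of 24 sets of values from groups of 4 arrays (12 probes in siNT4 and in siHMGA1+siTFDP1), 2 held an array far from the others by Dixon's test, where chance alone gives about 1 in 20. RBBP7 on siNT4 replicate 4 was 11.53 and the other 3 arrays lay at 11.10 to 11.13, a gap of 0.947 of the range. This array is a control of the siATF5 comparison, where the RBBP7 change without it was -0.27 (adjusted p = 0.168, limma). RBBP4 ILMN_2062524 on the library labelled siHMGA1+siTFDP1 replicate 1 was 8.41 and the other 3 arrays lay at 8.88 to 8.90, a gap of 0.967 of the range. The same library had HMGA1 at 11.27 where the other 3 had 10.58 to 10.70.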

How the results depend on the processing

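The 18 changes of single probes followed through every alternative kept their direction. Other member changes did not. With 45 arrays, siTFDP1+siATF5 changes turned for SUZ12 (0.15 to -0.88), RBBP4 ILMN_3251085 (0.15 to -1.60) and ILMN_2062524 (-0.06 to 0.12), EP300 (0.29 to -0.74), ARID1A (0.16 to -0.49) and SMARCA4 (0.24 to -0.54). With each array's share of detected probes as covariate, siATF5 changes turned for ARID1A (-0.09 to 0.21), SMARCA4 (-0.13 to 0.06), EZH2 ILMN_1708105 (0.10 to -0.09) and ILMN_1652913 (0.03 to -0.11) and RBBP4 ILMN_2062524 (-0.05 to 0.06), none of them called in either fit. The count of member probes called in siATF5, 1 in the reported fit, was 0 with all 45 arrays, with array weights, with quantile normalization, with each array's share of detected probes as covariate, with a replicate block and with the arrays of that set alone, and it was 0 to 2 when single replicates were left out. RBBP7 itself then had adjusted p = 0.559, 0.125, 0.0805, 0.999, 0.0524 and 0.117 in that order, and 0.0018 to 0.244 with single replicates left out (changes of -0.50 to -0.27). Over all probes the siATF5 count was 461 in the reported fit, 8 with 45 arrays, 77 with array weights, 5 with the covariate, 57 with that set alone and 27 to 2402 with single replicates left out. In siTFDP1+siATF5 the member count was 6 with 45 arrays against 0, as 7634 probes were then called, and it came from the array that stood apart. For siATF5 against siTFDP1 it was 0 to 2 with single replicates left out against 0, and all-probe counts were 8 to 895 against 106. For siNT4+siNT4 against siNT4 in set A it was 2 with array weights, 1 with a replicate block and 2 with that set alone, against 0, and all-probe counts were 55, 0 (45 arrays), 590, 299 and 599. For siNT4 of set A against the first set it was 0 with 45 arrays, 2 with array weights and 3 with a replicate block, against 1, and all-probe counts were 341, 67, 691 and 776. The cause of these shifts was not tested. The replicate numbers were not taken to pair the samples, as no label says so and every same-numbered pair correlated over 0.1 in only 1 of 10 comparisons. Over 27 pairs the correlation of deviations ran from -0.306 to 0.411 and 14 exceeded 0.1, among them all 7 of replicate 3 in the first set (0.16 to 0.346), so shared handling of some numbers was not settled. Contrasts between sets have no value from 1 set alone. Of the values of single probes under the alternatives, 276 kept their direction and side of the threshold, 10 gained a call and 11 lost one. Of the counts of calls, 209 stayed the same and 19 moved.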

Other observations

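The array of siTFDP1+siATF5 replicate 3, left out of the comparisons, had RBBP7 at 9.0, SUZ12 at 9.66 and the EZH2 probe ILMN_1708105 at 9.03. The other EZH2 probes, ILMN_2364529 and ILMN_1652913, were both at 6.63, and the RBBP4 probes were at 6.63, 8.99 and 7.47. On the other 44 arrays the lowest values were 10.65 for RBBP7, 11.40 for SUZ12 and 8.46 for EZH2 ILMN_2364529.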
